A study of Homo sapiens with 12 samples.

Results

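REH and NALM-6 are established human lines of B-cell precursor acute lymphoblastic leukemia, a cancer of immature B cells arrested before the mature antigen receptor is made. The comparison described here sets REH against NALM-6 in ordinary culture, RPMI medium with 10% fetal calf serum for 48 h, with 3 libraries of each line. The whole series holds 12 libraries, since both lines were also kept in human cerebrospinal fluid (CSF), and those 6 libraries enter here only through the shared estimate of spread and as a second set of samples. RNA came from a lysed culture and was sequenced as stranded poly(A)-selected libraries. The members are the 12794 autosomal genes with at least 1 CPM (reads per gene, scaled to a total of 1000000 per library) in at least 3 of the 6 media libraries, out of 55567 autosomal genes in the table, and 11032 of them encode proteins. Of the members, 10376 reached 1 CPM in all 6 libraries, while 1013 did so in no NALM-6 library and 433 in no REH library. Members of the last 2 kinds passed through 1 line alone and so had to differ.

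As background, REH carries the ETV6-RUNX1 fusion, in which the repressor ETV6 is joined to the blood cell factor RUNX1, and NALM-6 belongs to the subtype with a rearranged DUX4 gene. Both subtypes are known for characteristic sets of genes that patients' leukemias share. B-cell precursors pass through a stage at which a surrogate light chain, made of VPREB1 and IGLL1, pairs with the immunoglobulin heavy chain to form the pre-B receptor, and at which the RAG recombinase and terminal transferase cut and extend the receptor genes. Each subtype stands on 1 line here, so subtype and line cannot be told apart. The RNA is that of a whole culture, so fewer expressing cells and less RNA per cell cannot be told apart either.

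The media libraries held between 28424901 and 37146556 reads. Library 1 of NALM-6 stood apart from the other 5. Ribosomal protein genes took 22.3% of its reads, against 6.13% to 6.56% in REH and 8.68% and 7.88% in the other NALM-6 libraries, and its reads fell on shorter genes (mean exonic length 4.62 kb, against 6.19 to 6.34 kb in REH and 5.98 and 6.12 kb in the other NALM-6 libraries). The median member differed by 0.74 and 0.79 (log2) between NALM-6 library 1 and libraries 2 and 3, by 0.10 between NALM-6 libraries 2 and 3, and by 0.07 to 0.09 between REH libraries. The line difference is therefore given with and without this library. With it, the median REH minus NALM-6 difference grew with exonic length, with medians of -0.05, 0.20, 0.38 and 0.56 over 4 equal bins of members from short to long, and without it the same medians were 0.02, 0.07, 0.10 and 0.14. The part that this library plays in a given gene's value was measured by leaving it out and was not tested otherwise.

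Taking all 6 libraries, 4964 of the 12794 members (38.8%) differed between the lines, 3339 higher in REH (26.1%) and 1625 lower (12.7%), by limma's moderated test on log2(CPM + 1) with Benjamini-Hochberg adjustment over all 13312 genes tested and a threshold of 0.05. Without NALM-6 library 1 the test called 6105 members (47.7%), 3723 higher (29.1%) and 2382 lower (18.6%). Of the original calls, 3210 of the higher and 1544 of the lower genes were called the same way without it, and 0 changed direction. The 3 REH libraries lay wholly above or wholly below the 3 NALM-6 libraries in 59.2% of the members, with REH above in 39.9%. The median difference over all members was 0.28, and 0.09 without NALM-6 library 1, so small differences depend on scaling. Median-of-ratios scaling moved the median to 0.03 and the split to 2806 higher and 2209 lower, and edgeR on whole reads gave a median of 0.01 with 2681 higher and 2563 lower. Large differences were common, with 2156 genes at least 2-fold higher and 932 at least 2-fold lower on the log2(CPM + 1) scale. At least 8-fold differences were found in 442 and 215 genes.

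**Figure D1:**
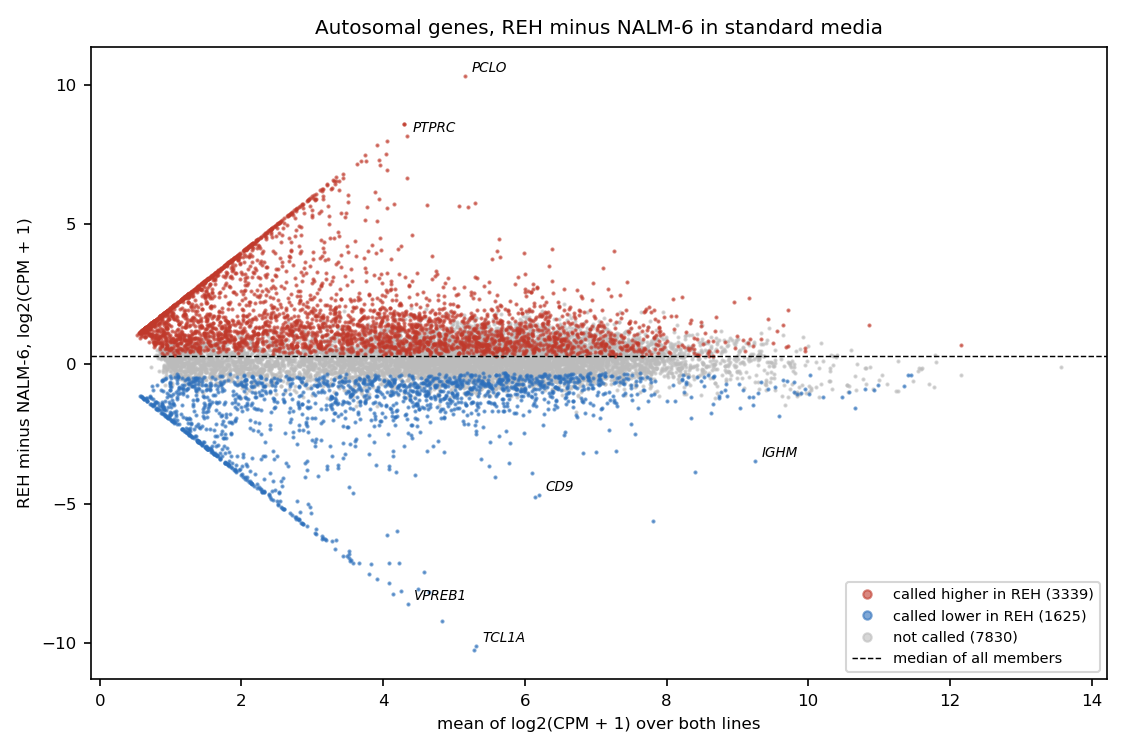
Difference between REH and NALM-6 (log2(CPM + 1), y axis) against the mean level over both lines (x axis) for the 12794 autosomal members, each point a gene coloured by its limma call, with the median of 0.28 dashed. The 2 straight edges of points are genes near 0 in one line, and 3339 genes were called higher in REH against 1625 called lower.

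Many of the called genes were silent in one line. In all, 402 of the genes higher in REH had no read in any NALM-6 media library, and 125 of the genes lower in REH had no read in any REH media library. The levels in CSF, which the media contrast does not use, gave a second view of the lines. The spread between CSF libraries did enter the test, so this view is not independent of the calls. There, 2738 of the 3339 higher and 1238 of the 1625 lower genes had the same direction with no overlap between the 3 REH and 3 NALM-6 CSF libraries, where 60.1% of all members had no overlap in either direction.

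The largest rise in REH was that of PCLO (ENSG00000186472), which encodes a scaffold protein of the presynaptic active zone in neurons and is listed among genes high in ETV6-RUNX1 leukemia. PCLO had 1233, 1274 and 1318 CPM in REH, against 0, 0 and 0 CPM in NALM-6, at least 41977-fold higher when reads are pooled over each group and 3 reads over the NALM-6 group are taken as the floor, as for every such bound (log2 difference 10.32 ± 0.16 (SE), limma adjusted p = 1.41e-11). IGF2BP1, an RNA-binding protein of fetal tissues, had 363, 396 and 405 CPM in REH, against 0, 0 and 0 CPM in NALM-6, at least 12773-fold higher. PTPRC, the leukocyte phosphatase CD45, had 319, 346 and 352 CPM in REH, against 0.0344, 0.216 and 0.35 CPM in NALM-6 (log2 difference 8.15 ± 0.25 (SE), limma adjusted p = 7.67e-10). All 3 were near or at 0 in NALM-6, and no REH library came near a NALM-6 library.

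IGSF10, an immunoglobulin superfamily protein, had 339, 399.7 and 421 CPM in REH, against 0, 0 and 0 CPM in NALM-6. PEG10, a retrotransposon-derived imprinted gene, had 213, 238 and 234 CPM in REH, against 0, 0 and 0 CPM in NALM-6. GABRA4, a subunit of the GABA-A receptor, had 252, 259 and 278 CPM in REH, against 0, 0.0924 and 0.0808 CPM in NALM-6, a ratio of mean CPM of 4556. The REH libraries exceeded 200 CPM for each of these genes, while NALM-6 had at most 6 reads over its 3 libraries. CRMP1, a neuronal cytoskeleton regulator, had 224, 220.4 and 220.4 CPM in REH, against 0.481, 0.123 and 0.0808 CPM in NALM-6. SLC12A7, a potassium-chloride cotransporter, had 167, 176 and 159 CPM in REH, against 0, 0.0308 and 0.269 CPM in NALM-6. CMTM3, a MARVEL domain membrane protein, had 189.8, 179.9 and 178 CPM in REH, against 0.103, 0.523 and 0.35 CPM in NALM-6. SLC35A4, a solute carrier whose locus overlaps APBB3, had 154, 140.4 and 145 CPM in REH, against 0.0688, 0 and 0.0538 CPM in NALM-6.

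A further 2 genes of this group are expressed in most cell types. PRDX2 (ENSG00000167815), a cytosolic peroxiredoxin that removes hydrogen peroxide, had 167, 155 and 155 CPM in REH, against 0.0344, 0.0308 and 0.0269 CPM in NALM-6, that is 3 reads over the NALM-6 group and a ratio of 5229 (95% counting interval 1789 to 25358). CBX1 (ENSG00000108468), a heterochromatin protein that binds methylated histone H3, had 195, 187 and 194 CPM in REH, against 0, 0.4003 and 0.296 CPM in NALM-6 (log2 difference 7.31 ± 0.14 (SE), limma adjusted p = 3.37e-11). Neither line difference moved the other way in any of the 20 alternatives.

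The largest fall was that of TCL1A, a coactivator of AKT kinases expressed in early B cells, which had 0.209, 0.281 and 0.0992 CPM in REH, against 1979, 1135 and 1029 CPM in NALM-6 (log2 difference -10.11 ± 0.22 (SE), limma adjusted p = 6.86e-11). VPREB1, one chain of the surrogate light chain, had 0, 0.0704 and 0.0331 CPM in REH, against 974, 276 and 238 CPM in NALM-6, 3 reads over the REH group and a NALM-6 to REH ratio of 13609 (95% counting interval 4656 to 65994). Its difference was -8.60 (log2) with all libraries and -7.96 without NALM-6 library 1. STAP1, an adaptor downstream of the B-cell receptor, had 0.1396, 0.317 and 0.959 CPM in REH, against 211, 202 and 189 CPM in NALM-6. These early B-lineage genes were near silent in REH, whose libraries never exceeded 1 CPM for any of them.

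TAGLN2 (ENSG00000158710), an actin-binding protein found in most cells, had 0.489, 0.352 and 0.628 CPM in REH, against 417, 437 and 415 CPM in NALM-6 (log2 difference -8.16 ± 0.11 (SE), limma adjusted p = 1.41e-11). SCD (ENSG00000099194), the stearoyl-CoA desaturase that makes monounsaturated fatty acids, had 0.1396, 0.141 and 0.132 CPM in REH, against 175, 419 and 451 CPM in NALM-6 (log2 difference -8.14 ± 0.29 (SE), limma adjusted p = 2.30e-09). NUP210, a glycoprotein of the nuclear pore membrane, had 0.454, 0.317 and 0.397 CPM in REH, against 163, 541 and 559.9 CPM in NALM-6, a difference of -8.05, or -8.63 without NALM-6 library 1. The REH libraries thus lay under 1 CPM for a structural, a metabolic and a nuclear pore gene that NALM-6 transcribed at 163 CPM or more in each library.

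MT1G, a metal-binding metallothionein with near-identical copies, had 0, 0.0352 and 0 CPM in REH, against 602, 236 and 202 CPM in NALM-6, 1 read over the REH group and a NALM-6 to REH ratio of 28929 (95% counting interval 5192 to 1142661). BCAT1, the cytosolic branched-chain aminotransferase, had 0.1396, 0.141 and 0.0661 CPM in REH, against 128, 331 and 386 CPM in NALM-6. AK4, a mitochondrial adenylate kinase, had 0.872, 0.317 and 0.562 CPM in REH, against 131, 279 and 292 CPM in NALM-6. PDGFRA, a receptor tyrosine kinase of mesenchymal cells, had 0, 0.141 and 0 CPM in REH, against 80.9, 331 and 385 CPM in NALM-6, a difference of -7.71, or -8.42 without NALM-6 library 1. For PDGFRA and BCAT1, NALM-6 library 1 was the lowest of its group and still lay far above every REH library. VLDLR, a lipoprotein receptor, had 0.279, 0.246 and 0.0661 CPM in REH, against 91.2, 225 and 233 CPM in NALM-6. CHST2, a carbohydrate sulfotransferase, had 0.733, 1.02 and 0.728 CPM in REH, against 256, 347 and 346 CPM in NALM-6.

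**Figure D2:**
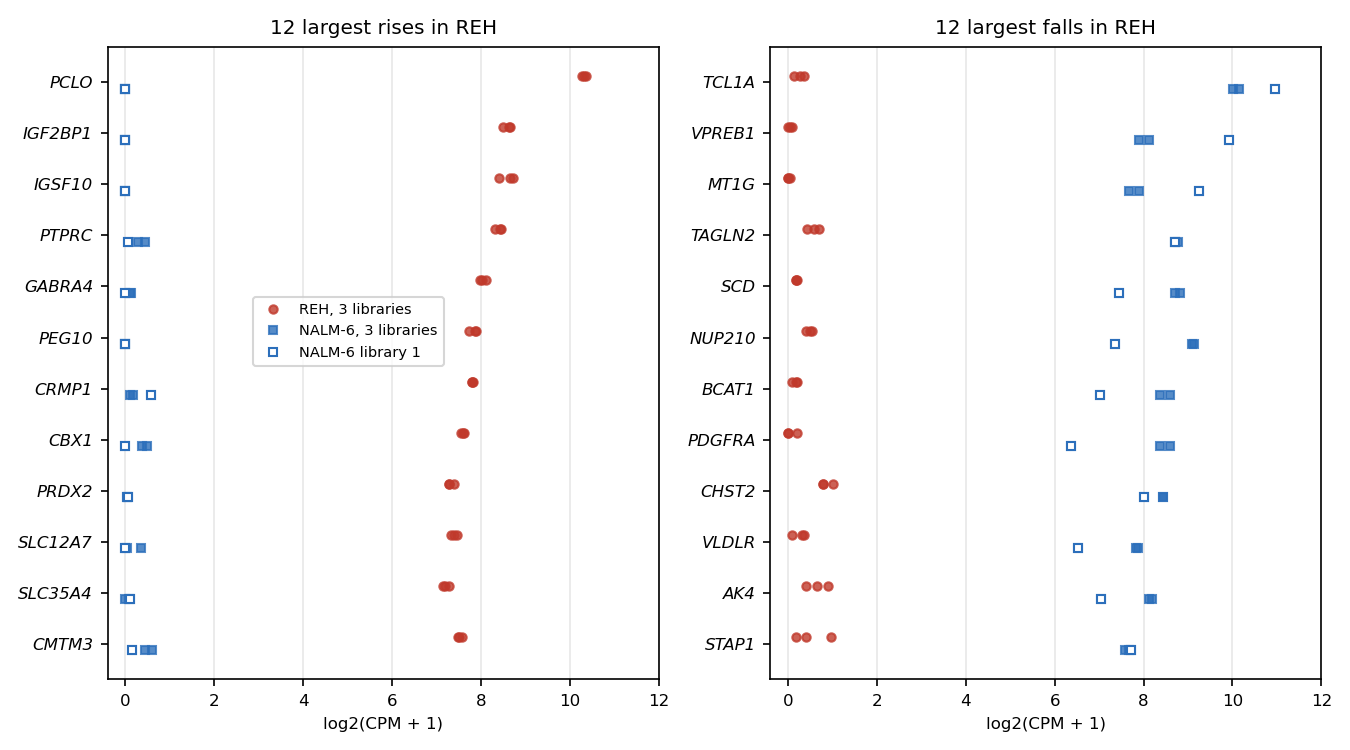
Level in each media library (log2(CPM + 1), x axis) of the 24 protein-coding genes farthest apart between the lines, 12 in each direction, red circles for the 3 REH libraries, blue squares for the 3 NALM-6 libraries and an open square for NALM-6 library 1. In all 24 genes the 2 lines do not overlap, and the open square lies apart from the other NALM-6 libraries in PDGFRA, NUP210, SCD, BCAT1, VPREB1 and MT1G, among others.

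The annotated start regions of 4 of these genes are shown. These genes had RNA in one line, were near silent in the other and are used in many cell types. Which start each line uses was not measured. Each runs 5′ to 3′ on the gene's strand, from 250 bases before to 50 bases after the annotated start (RefSeq, GRCh38.p14), with CG dinucleotides in capitals. PRDX2 and CBX1 are the genes on in REH, and TAGLN2 and SCD are the genes on in NALM-6.
PRDX2, chr19:12801751-12802050, minus strand: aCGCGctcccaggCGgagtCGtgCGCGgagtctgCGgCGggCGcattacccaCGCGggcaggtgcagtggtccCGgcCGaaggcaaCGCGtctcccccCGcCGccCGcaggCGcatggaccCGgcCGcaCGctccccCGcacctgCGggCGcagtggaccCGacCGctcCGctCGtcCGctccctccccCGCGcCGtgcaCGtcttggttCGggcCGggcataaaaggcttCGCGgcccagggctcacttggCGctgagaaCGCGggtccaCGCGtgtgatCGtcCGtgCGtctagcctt
CBX1, chr17:48101137-48101436, minus strand: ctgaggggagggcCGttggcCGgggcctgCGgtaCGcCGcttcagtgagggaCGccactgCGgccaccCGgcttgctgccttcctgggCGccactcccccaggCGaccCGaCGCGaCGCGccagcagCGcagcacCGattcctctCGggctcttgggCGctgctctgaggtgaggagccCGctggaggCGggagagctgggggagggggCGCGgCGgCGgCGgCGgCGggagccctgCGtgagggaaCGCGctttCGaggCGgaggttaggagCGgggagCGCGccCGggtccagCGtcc
TAGLN2, chr1:159925458-159925757, minus strand: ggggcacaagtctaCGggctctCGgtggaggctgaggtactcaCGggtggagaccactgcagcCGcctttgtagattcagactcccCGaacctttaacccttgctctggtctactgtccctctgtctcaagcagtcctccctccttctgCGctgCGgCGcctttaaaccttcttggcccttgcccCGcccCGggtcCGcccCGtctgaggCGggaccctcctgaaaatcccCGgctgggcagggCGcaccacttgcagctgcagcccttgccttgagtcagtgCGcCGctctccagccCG
SCD, chr10:100346983-100347282, plus strand: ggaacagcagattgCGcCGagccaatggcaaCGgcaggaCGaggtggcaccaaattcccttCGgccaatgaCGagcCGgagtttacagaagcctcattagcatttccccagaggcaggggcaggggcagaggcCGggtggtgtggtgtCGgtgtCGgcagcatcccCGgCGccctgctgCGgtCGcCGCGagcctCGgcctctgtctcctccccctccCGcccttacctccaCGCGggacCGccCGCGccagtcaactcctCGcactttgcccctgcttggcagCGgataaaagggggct
The windows hold 46 CG dinucleotides in PRDX2, 38 in CBX1, 18 in TAGLN2 and 25 in SCD, and their GC content is 73.7%, 75.7%, 64.3% and 66.3%. Over the 8844 protein-coding members with such a window the median was 27 CG dinucleotides, and 73.4% had at least 20. Of the 525 protein-coding genes under 0.2 CPM in NALM-6 and at 1 CPM or more in REH, 379 had a window, with a median of 23 CG dinucleotides and 57.3% at 20 or more. Of the 225 genes with the opposite pattern, 176 had a window, with a median of 24 and 61.4%. Genes silent in one line thus had somewhat fewer CG dinucleotides at the start than members at large, in either direction, given here as a description. The RUNX core TGTGGT, searched on both strands, was present in 9.68% of the windows of genes higher in REH, 9.57% of those lower in REH and 9.11% of all 9503 member windows, and in 13.1% of all 27305 windows of the table. Among the 21 windows found for the 24 genes above, SCD held the only match. A match is a description of these letters and not of a bound site.

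Genes known from patients of the 2 subtypes differed between the lines. Of 14 genes listed as high in ETV6-RUNX1 leukemia, 12 were measured. In REH 10 rose and 0 fell, with and without NALM-6 library 1, beside 26.1% higher and 12.7% lower over all members. The median difference of the 12 was 4.03, or 4.44 with the 5 genes that had no read in NALM-6 set at their bound, against 0.28 over all members. Those 5 genes passed the filter through REH alone and so had to differ. The list was chosen with earlier results of these data known, so its direction is no independent support. Beside PCLO and IGF2BP1, 3 genes had no NALM-6 read. DSC3, a desmosomal cadherin, had 58.7, 64.6 and 73.8 CPM in REH, against 0, 0 and 0 CPM in NALM-6. CLIC5, a chloride channel protein, had 55.3, 59.6 and 57.8 CPM in REH, against 0, 0 and 0 CPM in NALM-6. BIRC7, an inhibitor of apoptosis, had 30.04, 27.8 and 24.3 CPM in REH, against 0, 0 and 0 CPM in NALM-6. PTPRK, a receptor phosphatase, had 223, 242 and 242 CPM in REH, against 2.03, 4.96 and 4.93 CPM in NALM-6 (log2 difference 5.64 ± 0.34 (SE), limma adjusted p = 1.36e-07). EPOR, the erythropoietin receptor, had 23.03, 22.2 and 21.2 CPM in REH, against 1.72, 0.924 and 1.78 CPM in NALM-6, a ratio of mean CPM of 15.03. PIK3C3, the class III lipid kinase of autophagy, had 162, 166 and 165 CPM in REH, against 16.3, 33.7 and 35.7 CPM in NALM-6. CBFA2T3, a corepressor, had 202, 208 and 190.1 CPM in REH, against 35.3, 56.2 and 55.3 CPM in NALM-6. ARHGEF4, a guanine exchange factor, had 19.5, 22.7 and 18.9 CPM in REH, against 2.75, 4.68 and 5.09 CPM in NALM-6. The 2 measured genes of the list that were not called are TCFL5, with 49.5, 46.3 and 48.8 CPM in REH, against 16.8, 48.8 and 53.4 CPM in NALM-6 (limma adjusted p = 0.327), and TERF2. TERF2, a telomere-binding protein, had 73.1, 74.2 and 73.6 CPM in REH, against 46.5, 82.4 and 83.2 CPM in NALM-6 (limma adjusted p = 0.686). CD27 and SCHIP1 stayed under the level filter.

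Of 9 genes listed as high in DUX4-rearranged leukemia, 7 were measured. In REH 5 fell and 1 rose, also without NALM-6 library 1, beside 12.7% lower and 26.1% higher over all members. CLEC12A and STAP1 reached 1 CPM in no REH library, so they passed the filter through NALM-6 alone and had to differ. This list too was chosen with earlier results of these data known, so its direction is no independent support. The ones that fell include STAP1 and CHST2, given above. CLEC12A, a C-type lectin of myeloid cells that marks this subtype, had 0, 0 and 0 CPM in REH, against 6.33, 7.79 and 7.73 CPM in NALM-6. With reads pooled over each group, the NALM-6 level was at least 213-fold that of REH. AGAP1, an ARF GTPase regulator, had 12.9, 16.3 and 15.7 CPM in REH, against 79.2, 283 and 289 CPM in NALM-6, a difference of -3.56, or -4.17 without NALM-6 library 1. PTPRM, a receptor phosphatase, had 4.19, 4.64 and 3.74 CPM in REH, against 8.01, 39.8 and 41.1 CPM in NALM-6, a difference of -2.27, or -3.00 without that library. ERG, an ETS factor often deleted in DUX4-rearranged leukemia, was higher in REH, with 257, 265 and 261 CPM in REH, against 53.1, 116 and 127 CPM in NALM-6 (log2 difference 1.49 ± 0.28 (SE), limma adjusted p = 0.00135). CCNJ did not pass the test, with 36.7, 37.01 and 39.6 CPM in REH, against 10.9, 45.8 and 52.5 CPM in NALM-6 and a difference of 0.32, or -0.37 without NALM-6 library 1. CD2 and DUX4 itself stayed under the filter. DUX4 is a multi-copy gene and was listed at 0 in all 6 media libraries.

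Among the genes joined or deleted in childhood leukemia, ETV6 was lower, with 4.08, 5.98 and 5.16 CPM in REH, against 28.3, 69.6 and 65.6 CPM in NALM-6 (log2 difference -3.10 ± 0.35 (SE), limma adjusted p = 2.81e-05). RUNX1 had 262, 275 and 279.9 CPM in REH, against 89.4, 246 and 272 CPM in NALM-6 and did not pass the test (limma adjusted p = 0.238). IKZF1, the Ikaros factor, had 371, 398 and 400.3 CPM in REH, against 47.8, 149 and 168 CPM in NALM-6 (log2 difference 1.86 ± 0.41 (SE), limma adjusted p = 0.00377). PDGFRB, a growth factor receptor, had 58.7, 64.1 and 66.2 CPM in REH, against 2.75, 4.34 and 4.17 CPM in NALM-6 (log2 difference 3.77 ± 0.21 (SE), limma adjusted p = 6.90e-08). BTG1, an antiproliferative gene, was lower with 49.9, 47.3 and 46.1 CPM in REH, against 72.6, 123 and 119.8 CPM in NALM-6. CDKN2A and CDKN2B, the cell cycle inhibitors of one locus, and their neighbour MTAP were listed at 0 in every library of both lines. Of the 15 measured genes of the list, 4 rose and 2 fell, and the rises numbered 8 without NALM-6 library 3. With all libraries that was near the 26.1% higher and 12.7% lower over all members.

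The pre-B receptor genes fell more often than they rose. Of 24 measured members, 10 fell in REH and 6 rose (13 and 6 without NALM-6 library 1), with a median difference of -0.16 against 0.28 over all members. Among all members 12.7% fell and 26.1% rose. IGHM, the mu heavy chain, had 189.8, 185 and 171 CPM in REH, against 2329, 1969 and 1831 CPM in NALM-6 (log2 difference -3.48 ± 0.14 (SE), limma adjusted p = 5.93e-09). IGLL1, the partner of VPREB1, had 465, 439 and 404 CPM in REH, against 1056, 855 and 811 CPM in NALM-6, a difference of -1.05. ZAP70, a kinase best known from T cells, had 0.419, 0.211 and 0.364 CPM in REH, against 56.4, 42.8 and 38.3 CPM in NALM-6 (log2 difference -5.12 ± 0.16 (SE), limma adjusted p = 8.17e-10). CD79A, a signalling chain of the receptor, was higher with 329, 312 and 304 CPM in REH, against 104.8, 119 and 107 CPM in NALM-6 (log2 difference 1.51 ± 0.14 (SE), limma adjusted p = 6.03e-06). CD79B, a further signalling chain, had 174, 162 and 158 CPM in REH, against 712, 189 and 178 CPM in NALM-6. Its difference was -0.80, or -0.15 without NALM-6 library 1, and it was not called (limma adjusted p = 0.180). The heavy chain and both surrogate light chain genes were therefore lower in REH, while CD79A was higher and CD79B was not. The lambda light chain locus, which was singled out after its values were seen, was near silent in REH as well. The constant gene IGLC7 had 0.0698, 0.176 and 0.0992 CPM in REH, against 2497, 1045 and 959 CPM in NALM-6, and the variable segment IGLV2-14 had 0.454, 0.106 and 0.0331 CPM in REH, against 602, 769.8 and 705 CPM in NALM-6. Without NALM-6 library 1 the IGLC7 difference was -9.81 (log2), against -10.25 with it. IGLC3 had 0, 0.0352 and 0.0661 CPM in REH, against 296, 163 and 136 CPM in NALM-6.

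The recombinase genes went the other way. RAG1, the nuclease that cuts the receptor loci, had 1195, 1346 and 1331 CPM in REH, against 54.7, 486 and 595 CPM in NALM-6 (log2 difference 2.35 ± 0.75 (SE), limma adjusted p = 0.0289), and it was called in 16 of 20 alternatives, with an adjusted p of up to 0.123. Its difference was 1.26 without NALM-6 library 1, the lowest of the 6. RAG2, its cofactor on the same locus, had 285, 295 and 291 CPM in REH, against 32.8, 133 and 136 CPM in NALM-6, a difference of 1.77, or 1.10 without that library, called in 19 of 20 alternatives. DNTT, the terminal transferase that adds nucleotides at the joins, had 1203, 1137 and 1144 CPM in REH, against 898, 858 and 798 CPM in NALM-6, a difference of 0.45, called in 16 of 20 with an adjusted p of up to 0.627. XRCC5, the Ku80 subunit that binds broken ends, had 1024, 1009 and 1024 CPM in REH, against 555, 745 and 723 CPM in NALM-6, a difference of 0.61. DCLRE1C, the hairpin-opening nuclease Artemis, was the 1 of 11 measured members that fell (2 without NALM-6 library 1), with 29.1, 30.3 and 30.4 CPM in REH, against 39.5, 38.7 and 39.8 CPM in NALM-6 (limma adjusted p = 0.0155, and 0.0953 with the replicate number as a block). DCLRE1C was called in 16 of 20 alternatives. Of the other 6 members none passed the test in limma.

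Of 35 measured transcription factors of the B lineage, 11 rose and 5 fell in REH, beside 26.1% higher and 12.7% lower over all members. Without REH library 1, 2 or 3 the rises numbered 7, 7 and 6, and without NALM-6 library 1 the falls numbered 8. IRF4, which drives pre-B cells out of cycle and later plasma cell fate, had 1.71, 1.196 and 1.06 CPM in REH, against 67.1, 202 and 226 CPM in NALM-6 (log2 difference -5.99 ± 0.37 (SE), limma adjusted p = 2.10e-07). IKZF3, the Aiolos factor, had 0.0698, 0.106 and 0 CPM in REH, against 3.65, 7.48 and 8.695 CPM in NALM-6 (log2 difference -2.78 ± 0.23 (SE), limma adjusted p = 2.22e-06). BCL6, a repressor of germinal centre and pre-B cells, had 164, 173 and 169 CPM in REH, against 5.74, 16.2 and 16.2 CPM in NALM-6 (log2 difference 3.75 ± 0.33 (SE), limma adjusted p = 3.63e-06). MEF2C, a MADS-box factor of lymphoid progenitors, had 652, 693 and 711 CPM in REH, against 78.5, 158 and 168 CPM in NALM-6, a difference of 2.41. ETS1, an ETS factor, had 156, 165 and 170.2 CPM in REH, against 7.12, 51.3 and 49.9 CPM in NALM-6, a difference of 2.56, or 1.67 without NALM-6 library 1, called in 19 of 20 alternatives. PAX5, the factor that fixes B-cell identity, had 634, 713 and 716 CPM in REH, against 212, 929 and 1013 CPM in NALM-6 and was not called in limma (adjusted p = 0.744). Its difference was 0.23 with all libraries and -0.50 without NALM-6 library 1, which lay far under the other 2.

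The surface antigens by which these leukemias are typed differed in both directions. Of 35 measured antigens of the 46 listed, 16 rose and 12 fell in REH (17 and 14 without NALM-6 library 1). The shares over all members were 26.1% higher and 12.7% lower. CD9, a tetraspanin, had 13.7, 12.6 and 13.96 CPM in REH, against 322, 410.3 and 394 CPM in NALM-6 (log2 difference -4.70 ± 0.13 (SE), limma adjusted p = 2.99e-10). CD34, the progenitor antigen, had 0.105, 0.281 and 0.0992 CPM in REH, against 9.15, 9.64 and 12.2 CPM in NALM-6 (log2 difference -3.28 ± 0.14 (SE), limma adjusted p = 6.65e-09). FLT3, the receptor tyrosine kinase, had 100.9, 109 and 105.0 CPM in REH, against 1.79, 3.69 and 5.03 CPM in NALM-6 (log2 difference 4.62 ± 0.25 (SE), limma adjusted p = 6.84e-08). CD70, the ligand of CD27, had 19.1, 19.1 and 17.5 CPM in REH, against 1.96, 0.554 and 0.592 CPM in NALM-6. The progenitor antigen and the tetraspanin were thus lower in REH, and the kinase receptor and the CD27 ligand higher.

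The antigens targeted by antibody and cell therapies also differed, and CD52 and IL7R are named after their values were seen. CD22 was higher, with 228, 231 and 227 CPM in REH, against 47.7, 84.9 and 78.5 CPM in NALM-6 (log2 difference 1.73 ± 0.19 (SE), limma adjusted p = 2.48e-05). CD52 had 59.9, 55.6 and 54.8 CPM in REH, against 13.7, 7.05 and 6.65 CPM in NALM-6. CD38 had 290.2, 307 and 317 CPM in REH, against 59.1, 142 and 137 CPM in NALM-6, and both antigens were higher in REH. MME, the neutral endopeptidase CD10, had 232, 254 and 253 CPM in REH, against 335, 905 and 957 CPM in NALM-6, a difference of -1.42, called in 19 of 20 alternatives. IL7R, the interleukin-7 receptor chain, had 704, 750.5 and 765 CPM in REH, against 103, 335 and 362 CPM in NALM-6, a difference of 1.67, or 1.08 without NALM-6 library 1, called in 19 of 20. Of the 12 markers of B-cell precursors, REH reached 1 CPM for 11 and NALM-6 for 12, VPREB1 being the one missing in REH, and their summed level was 4850.2 to 5002 CPM in REH and 4864 to 5273 CPM in NALM-6. Both lines thus carried the transcripts of their labelled cell type.

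**Figure D3:**
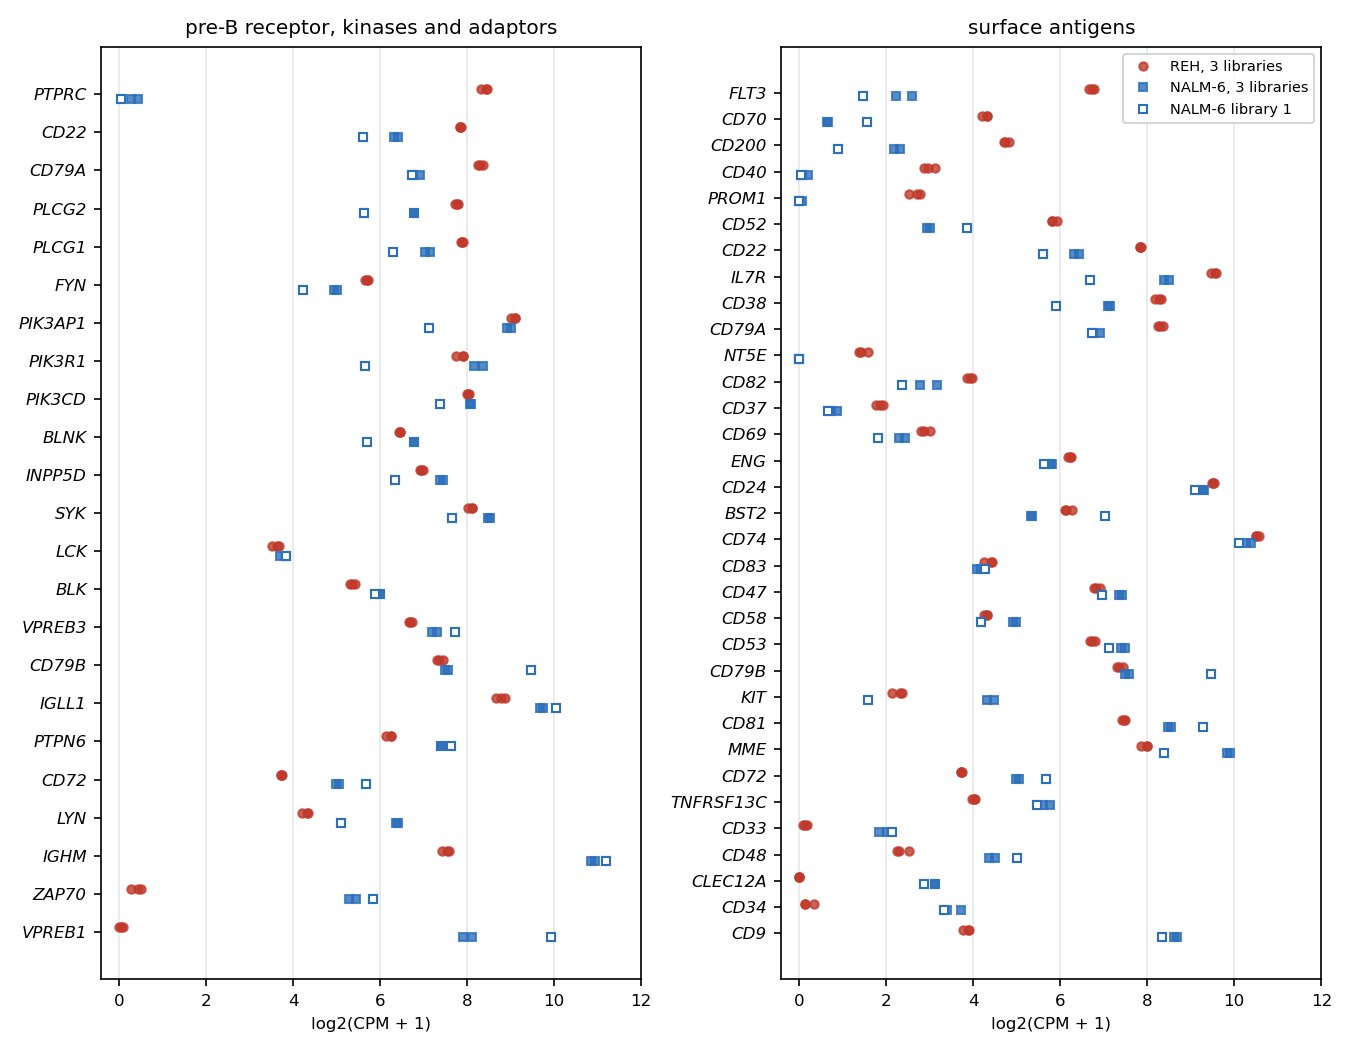
Level in each media library (log2(CPM + 1), x axis) of measured genes of the pre-B receptor list and measured surface antigens, ordered from the most positive to the most negative REH minus NALM-6 difference, red circles for REH, blue squares for NALM-6 and an open square for NALM-6 library 1. PTPRC and FLT3 head the 2 panels, and VPREB1 and CD9 close them.

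Markers of other cell types were lower than those of B-cell precursors in both lines, and their part in the results was not tested. The 12 myeloid markers summed to 72.5 to 82.3 CPM in REH and 3.26 to 4.16 CPM in NALM-6, with ELANE, S100A8 and S100A9 at 0 in all 6 libraries, and of the 4 measured ones MPO, CSF1R and ITGAM rose in REH while CEBPA fell. The 12 T and NK markers summed to 25.6 to 26.9 CPM in REH and 9.18 to 16.7 CPM in NALM-6, with CD3D, CD3G, CD5 and CD7 at 0. The 9 mature B and plasma cell markers summed to 83.5 to 92.5 CPM in REH and 193 to 555 CPM in NALM-6, and the 12 stromal markers to 7.24 to 9.08 CPM in REH and 82.8 to 386 CPM in NALM-6, where PDGFRA made up nearly all of the sum. The 11 erythroid and megakaryocyte markers summed to 1.61 to 2.04 CPM in REH and 1.05 to 1.99 CPM in NALM-6.

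Some genes of development and of the nervous system were read in REH and had few or no reads in NALM-6, while others went the other way. Of the 13 measured HOX genes and partners, 11 rose in REH and 1 fell, beside 26.1% higher and 12.7% lower over all members. Of the 13, 9 had no read in NALM-6. Those 9 passed the filter through REH alone and so had to differ. The count therefore describes genes on in REH and carries no further weight. The HOXA cluster specifies position along the body axis and is active in several acute leukemias. HOXA3 had 10.1, 9.71 and 11.1 CPM in REH, against 0, 0 and 0 CPM in NALM-6, at least 339.9-fold higher. HOXA5 had 9.84, 7.81 and 9.13 CPM in REH, against 0, 0 and 0 CPM in NALM-6, at least 294-fold higher. HOXA13 had 10.8, 10.9 and 10.4 CPM in REH, against 0, 0 and 0 CPM in NALM-6, at least 352-fold higher. HOXA9, the member best known from leukemia, had 4.501, 4.05 and 4.73 CPM in REH, against 0, 0 and 0 CPM in NALM-6. HOXA7 had a single read in NALM-6. From SKAP2 to HOXA13 on chromosome 7, 10 neighbouring members were all under 0.2 CPM in NALM-6, and with HIBADH, TAX1BP1 and JAZF1 a run of 13 genes was called higher between positions 26667062 and 28180743 (GRCh38). PBX3, a HOX cofactor the only fall of the list and named after its value was seen, was lower with 26.3, 26.03 and 27.9 CPM in REH, against 40.2, 92.98 and 94.1 CPM in NALM-6 (log2 difference -1.37 ± 0.28 (SE), limma adjusted p = 0.00225).

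Of 21 measured synaptic, GABA receptor and neuronal adhesion genes, 16 rose in REH and 2 fell (16 and 5 without NALM-6 library 1), and 7 had no read in NALM-6. Over all members 26.1% rose and 12.7% fell. The 2 that fell were MAP2 and MAP1B. MAP2 had 0, 0 and 0.0661 CPM in REH, against 3.20, 7.48 and 8.16 CPM in NALM-6. MAP1B had 6.46, 5.95 and 7.97 CPM in REH, against 9.87, 41.4 and 47.5 CPM in NALM-6, called in 19 of 20 alternatives. SLIT2, an axon guidance ligand, had 37.7, 41.9 and 43.7 CPM in REH, against 0, 0 and 0 CPM in NALM-6, at least 1354-fold higher. The semaphorin receptor PLXNA1 had 128, 133 and 123 CPM in REH, against 0.928, 1.29 and 2.29 CPM in NALM-6 (log2 difference 5.73 ± 0.24 (SE), limma adjusted p = 6.63e-09). NRXN2, a presynaptic adhesion protein, had 66.4, 68.9 and 64.7 CPM in REH, against 0.791, 0.493 and 1.104 CPM in NALM-6. Members that passed the filter through REH alone are among them, so the count describes genes on in REH and carries no further weight. Of 15 measured imprinted genes, 5 rose and 2 fell (4 fell without NALM-6 library 1, and 1 without NALM-6 library 2 or any single REH library). All members gave 26.1% higher and 12.7% lower. MEST, an imprinted hydrolase-like gene, had 29.1, 26.98 and 29.1 CPM in REH, against 0, 0 and 0 CPM in NALM-6. SGCE, which shares a start region with PEG10, had 23.6, 22.5 and 24.4 CPM in REH, against 0.172, 0 and 0 CPM in NALM-6. KCNQ1OT1, the antisense RNA of an imprinted cluster, had 0, 0 and 0 CPM in REH, against 2.03, 4.56 and 7.73 CPM in NALM-6.

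Adhesion genes rose in REH more often than they fell, 11 against 4 of 25 measured (12 against 6 without NALM-6 library 1), with a median of 0.77 against 0.28 over all members. Rises also outnumbered falls among all members, at 26.1% against 12.7%. The desmosomal genes DSC3, DSC2 and DSG2 lie close together on chromosome 18 and were all without reads in NALM-6. DSG2 had 35.8, 39.6 and 40.8 CPM in REH, against 0, 0 and 0 CPM in NALM-6, at least 1276-fold higher. ALCAM, an adhesion molecule of activated leukocytes, had 15.9, 14.8 and 16.8 CPM in REH, against 0, 0 and 0 CPM in NALM-6, at least 522-fold higher. ESAM, a junctional molecule of endothelium, was lower with 1.85, 0.9499 and 1.82 CPM in REH, against 50.96, 52.99 and 51.6 CPM in NALM-6 (log2 difference -4.40 ± 0.15 (SE), limma adjusted p = 1.75e-09). CXCR4, the chemokine receptor that holds precursors in marrow, had 221, 208 and 213 CPM in REH, against 467, 527 and 474 CPM in NALM-6 (log2 difference -1.19 ± 0.10 (SE), limma adjusted p = 3.84e-06). Of the 6 measured chemokine and chemoattractant receptors, CXCR4, S1PR1 and S1PR3 fell and LTB4R and S1PR2 rose. S1PR3, a sphingosine phosphate receptor, had 1.43, 0.9499 and 0.794 CPM in REH, against 3.54, 14.5 and 16.99 CPM in NALM-6, a difference of -2.41, or -3.03 without NALM-6 library 1. S1PR1 had 0.1396, 0.106 and 0.165 CPM in REH, against 1.82, 3.97 and 3.34 CPM in NALM-6. LTB4R, a leukotriene receptor, had 45.5, 41.4 and 37.8 CPM in REH, against 22.1, 19.03 and 17.1 CPM in NALM-6. S1PR2 had 5.83, 5.73 and 4.796 CPM in REH, against 4.16, 2.92 and 2.48 CPM in NALM-6, called in 14 of the 19 alternatives that tested it.

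Of 21 measured NF-kB genes, 10 rose in REH and 2 fell, beside 26.1% higher and 12.7% lower over all members (13 and 3 without NALM-6 library 1, and 1 lower without any single REH library). The cytokine genes LTA, TNF and LTB, with LST1 and AIF1, form a run of 5 neighbours higher in REH on chromosome 6. TNF had 33.7, 33.8 and 37.3 CPM in REH, against 0.275, 0.216 and 0.377 CPM in NALM-6 (log2 difference 4.80 ± 0.13 (SE), limma adjusted p = 3.50e-10). LTB had 55.6, 51.5 and 51.7 CPM in REH, against 0.241, 0.185 and 0.108 CPM in NALM-6. LTA had 21.9, 20.9 and 22.8 CPM in REH, against 0.928, 0.801 and 0.619 CPM in NALM-6. TNFAIP2, a TNF-induced gene, had 51.7, 53.4 and 47.5 CPM in REH, against 0, 0 and 0 CPM in NALM-6, at least 1671-fold higher. BCL3, a nuclear IkB protein, was also higher (log2 difference 2.97 ± 0.20 (SE), limma adjusted p = 3.53e-07). All 3 cytokine genes were under 1 CPM in every NALM-6 library. Interferon-stimulated genes rose in 16 of 39 measured members and fell in 5 (17 and 8 without NALM-6 library 1). IFITM3, an antiviral membrane protein with near-identical relatives, had 30.1, 27.9 and 27.8 CPM in REH, against 0.206, 0.185 and 0.188 CPM in NALM-6 (log2 difference 4.63 ± 0.20 (SE), limma adjusted p = 7.89e-09). OAS3, an oligoadenylate synthetase, had 85.3, 89.6 and 87.7 CPM in REH, against 4.26, 26.05 and 28.4 CPM in NALM-6, a difference of 2.46, or 1.65 without that library. MX2, an antiviral GTPase, had 37.7, 39.2 and 39.1 CPM in REH, against 6.12, 9.699 and 9.05 CPM in NALM-6.

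**Figure D4:**
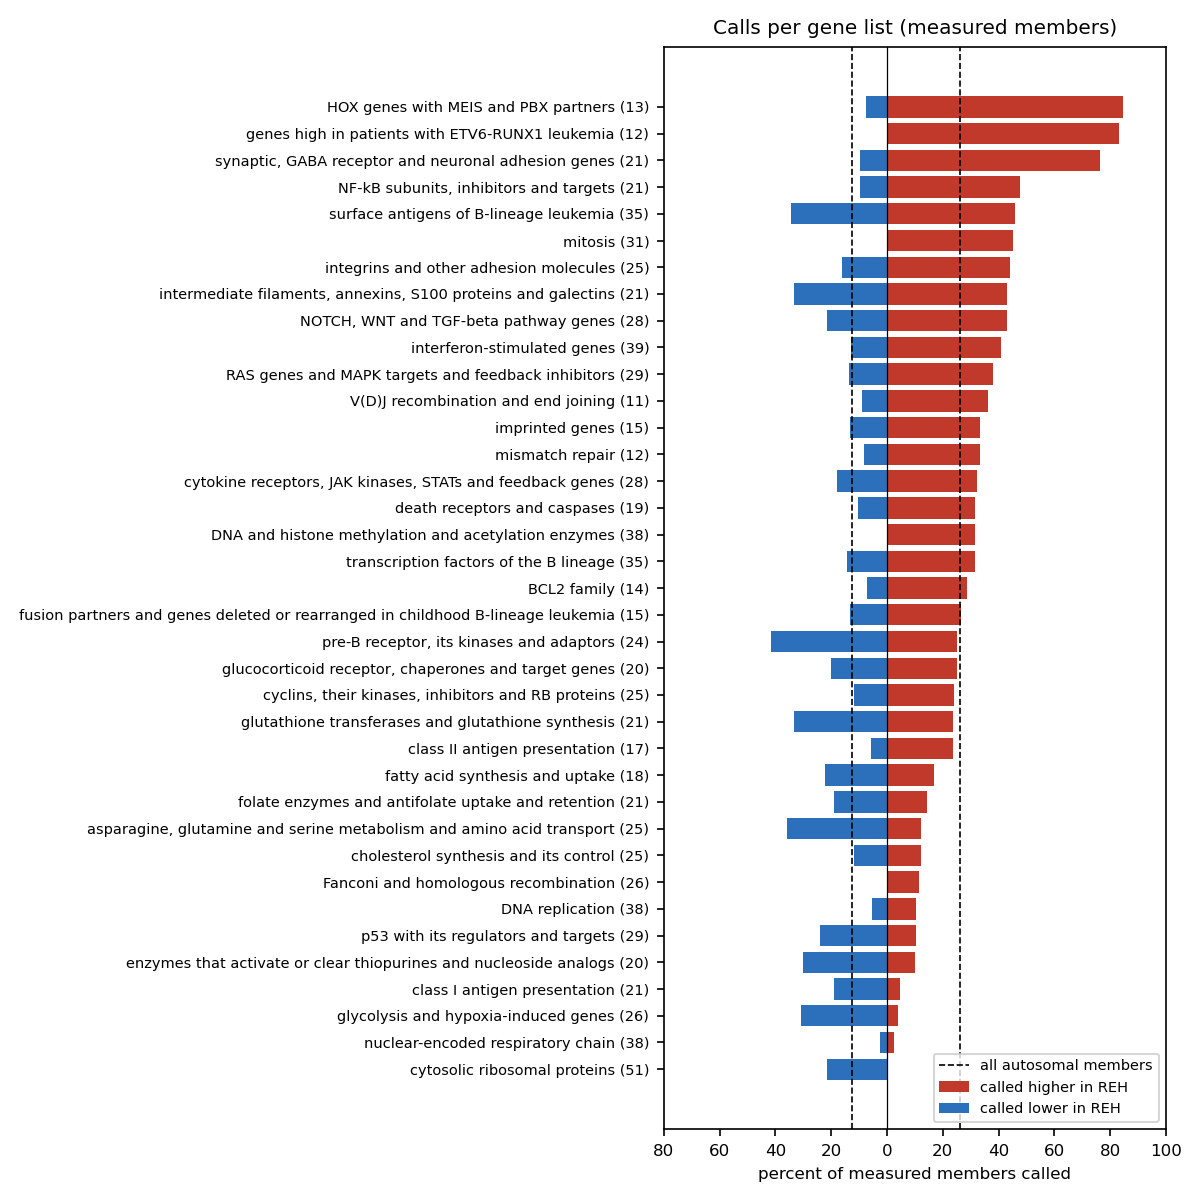
Percent of the measured members of each gene list called higher (red, right) or lower (blue, left) in REH, with the number measured in parentheses and dashed lines at the share of all autosomal members, 26.1% higher and 12.7% lower. HOX genes, genes of ETV6-RUNX1 leukemia and synaptic genes reach furthest to the right, and ribosomal protein genes have no member called higher. Of the HOX, ETV6-RUNX1 and synaptic lists, 9, 5 and 7 members had no NALM-6 read and so passed the filter through REH alone.

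RAS and MAPK genes differed in both directions. Of 29 measured members, 11 rose and 4 fell (12 and 7 without NALM-6 library 1). Here and for the pathways below, the shares over all members were 26.1% higher and 12.7% lower. EGR1, an immediate early factor, had 28.3, 28.4 and 37.3 CPM in REH, against 0.688, 1.45 and 2.07 CPM in NALM-6 (log2 difference 3.78 ± 0.21 (SE), limma adjusted p = 6.62e-08). DUSP6, a phosphatase of ERK, had 231, 239 and 237 CPM in REH, against 12.8, 58.01 and 62.00 CPM in NALM-6, a difference of 2.67, or 1.96 without NALM-6 library 1. SPRED1, an inhibitor of RAS activation, had 0, 0 and 0 CPM in REH, against 6.396, 27.6 and 32.3 CPM in NALM-6, at least 672-fold lower in REH, with differences of -4.26 and -4.95 with and without that library. DUSP2, a nuclear MAPK phosphatase, had 0, 0 and 0 CPM in REH, against 6.26, 7.51 and 8.32 CPM in NALM-6. ETV5, an ETS factor induced by ERK, had 2.41, 2.46 and 2.41 CPM in REH, against 18.3, 30.5 and 29.6 CPM in NALM-6. Of 28 measured genes of NOTCH, WNT and TGF-beta pathways, 12 rose and 6 fell (3 fell without REH library 2 or 3). SMAD3, a TGF-beta effector, had 57.6, 63.8 and 63.6 CPM in REH, against 0.8597, 3.02 and 3.72 CPM in NALM-6 (log2 difference 4.26 ± 0.32 (SE), limma adjusted p = 1.003e-06). LRP5, a WNT coreceptor, had 63.2, 65.2 and 61.7 CPM in REH, against 1.41, 4.003 and 3.47 CPM in NALM-6. NOTCH1 had 155, 168 and 164 CPM in REH, against 11.1, 36.9 and 39.2 CPM in NALM-6.

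Of 12 measured DNA mismatch repair genes, 4 rose in REH, beside 26.1% of all members. MSH6, which forms part of a complex that recognises mismatches, had 532, 547 and 532 CPM in REH, against 151, 218 and 216 CPM in NALM-6 (log2 difference 1.48 ± 0.16 (SE), limma adjusted p = 1.74e-05). MLH3, a MutL-type protein with a role in meiotic crossing over, had 29.6, 30.04 and 27.7 CPM in REH, against 7.02, 11.2 and 13.7 CPM in NALM-6. Both genes were higher in every REH library than in any NALM-6 library. MSH3 had 31.02, 31.2 and 32.1 CPM in REH, against 11.7, 21.3 and 22.9 CPM in NALM-6, called in 14 of 20 alternatives (limma adjusted p = 0.0275, and 0.05297 with the replicate number as a block).

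Genes tied to the drugs of childhood leukemia were read from 4 lists, whose counts stand beside 26.1% higher and 12.7% lower over all members. Glucocorticoid genes gave 5 higher and 4 lower of 20 measured (7 lower without NALM-6 library 1). FKBP4, a receptor cochaperone, had 178, 176 and 171 CPM in REH, against 34.6, 22.5 and 23.8 CPM in NALM-6 (log2 difference 2.68 ± 0.17 (SE), limma adjusted p = 2.13e-07). NR3C1, the glucocorticoid receptor, had 30.9, 33.2 and 33.1 CPM in REH, against 31.5, 118 and 128 CPM in NALM-6, a difference of -1.25 (limma adjusted p = 0.0415) that was -1.89 without NALM-6 library 1 and was called in 13 of 20 alternatives. NALM-6 library 1 alone lay at the REH level. The receptor was named after its values were seen.

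Thiopurine and nucleoside genes gave 2 higher and 6 lower of 20 (11 lower without NALM-6 library 1, and 1 higher without any single REH library). SLC29A2, a nucleoside transporter, had 2.13, 1.93 and 1.85 CPM in REH, against 20.01, 23.4 and 21.99 CPM in NALM-6 (log2 difference -2.94 ± 0.13 (SE), limma adjusted p = 1.16e-08). IMPDH2, the inosine dehydrogenase, had 176, 160.1 and 162 CPM in REH, against 936, 545 and 499 CPM in NALM-6 (log2 difference -1.93 ± 0.23 (SE), limma adjusted p = 4.41e-05). PNP, the purine nucleoside phosphorylase, had 95.4, 90.4 and 93.00 CPM in REH, against 309, 251 and 236 CPM in NALM-6. Folate genes gave 3 higher and 4 lower of 21. ABCG2, a drug efflux pump, had 0.977, 0.9499 and 0.794 CPM in REH, against 7.94, 16.01 and 14.4 CPM in NALM-6 (log2 difference -2.80 ± 0.20 (SE), limma adjusted p = 7.67e-07). MTHFD2L, a mitochondrial folate enzyme, was higher with 50.6, 49.4 and 48.1 CPM in REH, against 9.63, 14.3 and 13.5 CPM in NALM-6. Asparagine and amino acid genes gave 3 higher and 9 lower of 25. ASRGL1 and SLC7A11, named next, rose, while most called members of this list fell. ASRGL1, an asparaginase-like enzyme, had 13.3, 11.8 and 13.1 CPM in REH, against 0, 0 and 0 CPM in NALM-6, at least 419-fold higher. SLC7A11, the cystine importer, had 33.4, 38.4 and 39.8 CPM in REH, against 0.997, 5.76 and 7.24 CPM in NALM-6, a difference of 2.99, or 2.35 without NALM-6 library 1. All of these lists held called genes in both directions.

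In fatty acid synthesis, 4 of 18 measured genes fell and 3 rose (5 rose without NALM-6 library 2 or 3). This count and those below stand beside 26.1% higher and 12.7% lower over all members. Beside SCD, ELOVL6, which lengthens fatty acids, had 7.99, 8.197 and 8.76 CPM in REH, against 17.7, 43.6 and 48.5 CPM in NALM-6. SCD5, the second human desaturase, was higher with 56.7, 51.2 and 52.9 CPM in REH, against 9.87, 23.95 and 21.5 CPM in NALM-6 (log2 difference 1.58 ± 0.26 (SE), limma adjusted p = 6.21e-04), so the 2 desaturase genes differed in opposite directions. In cell death, 4 of 14 measured BCL2 family genes rose (2 without REH library 2) and 1 fell (3 without NALM-6 library 1). BIK, a BH3-only killer protein, had 0, 0 and 0 CPM in REH, against 11.2, 8.56 and 7.35 CPM in NALM-6, at least 258-fold lower in REH. BCL2 itself had 213, 231 and 232 CPM in REH, against 34.1, 98.2 and 104.6 CPM in NALM-6 (log2 difference 1.66 ± 0.39 (SE), limma adjusted p = 0.00563). Among glutathione genes, 5 rose and 7 fell of 21, with GSTM1, a transferase that many people lack through deletion and whose sequence is close to that of GSTM2, at 0, 0 and 0 CPM in REH, against 31.1, 33.4 and 31.6 CPM in NALM-6. Among cytoskeletal and calcium-binding genes, 9 rose and 7 fell of 21. S100A16 had 0, 0.0352 and 0 CPM in REH, against 88.1, 37.7 and 32.6 CPM in NALM-6. LGALS1, galectin-1, was higher with 25.96, 21.00 and 22.7 CPM in REH, against 1.31, 0.339 and 0.592 CPM in NALM-6.

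Mitosis genes rose in 14 of 31 measured members and fell in 0 (18 and 0 without NALM-6 library 1, 22 higher without NALM-6 library 3). Their median was 0.83 against 0.28 over all members, and 0.52 against 0.09 without NALM-6 library 1. KIF20A, a kinesin of cytokinesis, had 144, 148 and 150.5 CPM in REH, against 17.4, 60.3 and 63.7 CPM in NALM-6, a difference of 1.83, or 1.24 without NALM-6 library 1. PLK1, a mitotic kinase, had 293, 283 and 267 CPM in REH, against 81.6, 138 and 138 CPM in NALM-6 (log2 difference 1.27 ± 0.19 (SE), limma adjusted p = 2.36e-04). Chromatin enzymes rose in 12 of 38 and fell in 0 (11 and 1 without that library), beside 26.1% higher and 12.7% lower over all members. TET1, a methylcytosine dioxygenase, had 15.7, 18.8 and 16.8 CPM in REH, against 0, 1.14 and 1.43 CPM in NALM-6 (log2 difference 3.38 ± 0.41 (SE), limma adjusted p = 5.31e-05). UHRF1, which recruits the maintenance DNA methyltransferase, had 1218, 1246 and 1169.7 CPM in REH, against 189, 566 and 572 CPM in NALM-6. Ribosomal protein genes fell in 11 of 51 and rose in 0, but the count was 7, 19 and 43 without NALM-6 library 1, 2 and 3, and 2 without any single REH library, so the count rests on single libraries. RPL14, on chromosome 3, had 374, 349 and 358 CPM in REH, against 1592, 808 and 749 CPM in NALM-6 (log2 difference -1.45 ± 0.27 (SE), limma adjusted p = 0.00151).

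The counts of the remaining lists follow, beside 26.1% higher and 12.7% lower over all members. Cytokine receptor and JAK-STAT genes gave 9 higher and 5 lower of 28 (8 lower without NALM-6 library 1), death receptors and caspases 6 and 2 of 19, and cyclins and their kinases 6 and 3 of 25 (11 higher without NALM-6 library 3, 6 lower without NALM-6 library 1). Genes of p53 gave 3 higher and 7 lower of 29, but 2 or 3 lower without any single REH library and 12 without NALM-6 library 1. Glycolysis and hypoxia genes gave 1 higher and 8 lower of 26 (13 lower without NALM-6 library 1, and 2 higher without any single NALM-6 library), and cholesterol genes 3 and 3 of 25 (8 lower without NALM-6 library 1). DNA replication genes gave 4 and 2 of 38, the respiratory chain 1 and 1 of 38 (6 higher without NALM-6 library 1 and 2 without NALM-6 library 3), Fanconi and recombination genes 3 and 0 of 26, class I presentation 1 and 4 of 21, class II presentation 4 and 1 of 17, and clustered histone genes 1 and 0 of 5. Without any single REH library the replication counts were 2 higher and 0 lower and the class I count was 2 lower, and without NALM-6 library 1, 2 or 3 the replication genes that fell numbered 6, 1 and 4. Class I genes had 2 higher without NALM-6 library 1, and class II genes 2 lower without NALM-6 library 1 or 3. Cholesterol genes had 6 higher without NALM-6 library 3 and 1 lower without any single REH library or NALM-6 library 2, and p53 genes had 1 higher without any single REH library and 5 without NALM-6 library 3. ALDOC, an aldolase, had 18.98, 16.7 and 16.2 CPM in REH, against 119.7, 72.5 and 65.4 CPM in NALM-6. ABCG1, a cholesterol exporter, had 4.19, 3.38 and 3.87 CPM in REH, against 32.6, 75.99 and 82.1 CPM in NALM-6.

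Differences were not spread evenly along the chromosomes. Chromosome 21, with 145 members, had a median of 0.65, which lay 0.36 above that of all members with and 0.36 above without NALM-6 library 1, and 40.7% of its members were called higher, against 26.1% of all members. Chromosome 3, with 717 members, had a median of 0.14, and 20.9% of its members were called lower, against 12.7%. In windows of 10 Mb with at least 10 members, 274 in all, 3 lay more than 0.5 above and 4 more than 0.5 below the median of all members both with and without NALM-6 library 1.

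On chromosome 3 the window from 40 to 50 Mb had a median of -0.58 (-0.77 without NALM-6 library 1) over its members, of which 51 were lower and 10 higher, and the window from 50 to 60 Mb had a median of -0.81 (-0.94) over 76 members, of which 46 were lower and 5 higher. Of the 10 runs of at least 5 neighbouring genes called lower, 5 lay there, among them IMPDH2 with DALRD3 and WDR6, RASSF1 with TUSC2 and NPRL2, and PRKCD with TKT. On chromosome 5 the window from 140 to 150 Mb had a median of 1.21 (0.95) over 60 members, of which 36 were higher and 3 lower. It holds a run of protocadherin gamma genes, whose transcripts share exons. At its upper edge a run from SLC26A2 to PDGFRB includes CSF1R, the receptor of myeloid growth factor CSF1, with 4.99, 4.96 and 4.399 CPM in REH, against 0, 0.0924 and 0 CPM in NALM-6. Just beyond it, 5 neighbours from CCDC69 to ATOX1, with SPARC among them, were all lower. In all, 36 runs were called higher and 10 lower, and further runs held zinc finger genes of chromosome 19 and the genes from VPS26C to ETS2 with ERG on chromosome 21, all higher in REH. On chromosome 16 the run of lower genes held the metallothioneins MT1F, MT1G, MT1H and MT1X.

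**Figure D5:**
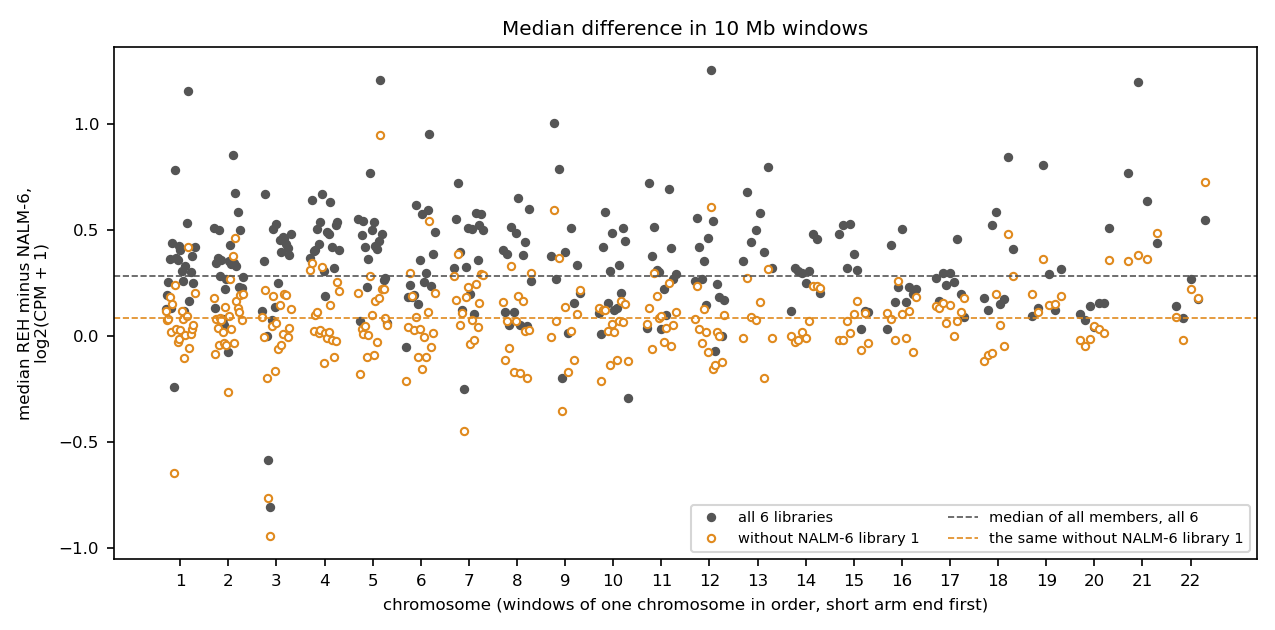
Median REH minus NALM-6 difference (log2(CPM + 1), y axis) of the members in each 10 Mb window, windows grouped by chromosome (x axis), filled points for all 6 libraries and open points without NALM-6 library 1, with the medians of all members dashed at 0.28 and 0.09. A pair of windows of chromosome 3 lies lowest in both sets, at -0.58 and -0.81 with all libraries, and one of chromosome 5 lies highest without NALM-6 library 1, at 0.95.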

How the data were processed

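Per the submitters' processing notes, FastQC, Trimmomatic 0.33, HISAT2 2.1.0, featureCounts, edgeR and GRCh38 were used, with no role or order stated; for the annotation release and strand setting nothing is given in the sources used here. RNA was extracted with a Qiagen kit and made into stranded TruSeq mRNA libraries, per the labels' protocols. The authors deposited CPM per gene for 60617 Ensembl IDs in 12 libraries, each column summing to 1000000, so no further scaling was applied. Whole reads were recovered for 100% of values (tolerance 1e-06), 28424901 to 37146556 per media library; 3 reads, the limit that 0 allows, equal 0.0808 to 0.106 CPM per library and 0.0344 (REH) or 0.0304 CPM (NALM-6) over a group. Intervals (95%) and floors cover counting error only. Names and positions came from GENCODE 29, which held 58542 IDs.

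The main test was limma 3.58.1 (R 4.3.3) with a trended empirical Bayes variance on log2(CPM + 1), fitted to all 12 libraries as 4 group means (8 residual degrees of freedom), two-sided, for the 13312 genes that reached 1 CPM in 3 or more of 6 media libraries. Fold changes on this scale understate those of low genes. The main test was also run on simulated data, in which no library was shifted as a whole in the way of NALM-6 library 1. That simulation therefore does not cover such a shift. Nothing says that libraries came from separate cultures, so p-values reflect only how these libraries vary. Alternatives were other pseudocounts, filters and scalings, edgeR 4.0.16 and DESeq2 1.42.0 on whole reads, the 6 media libraries alone, a replicate block, and each library left out; edgeR without NALM-6 library 1 was chosen after seeing the data. Each gene called in the report was called the same way in all 20 alternatives unless a number is given, apart from genes under 5 CPM, which the stricter filter left untested. Same-numbered REH and NALM-6 libraries deviated together (r = 0.43, 0.15 and 0.34), which met the rule that every same-numbered pair exceed 0.1. REH 3 with NALM-6 2 (r = 0.29) and REH 2 with NALM-6 3 (r = 0.16) correlated about as much. The numbers were used as pairs only in the replicate block, with 4455 members called. The main test, with its 4964 calls, is unpaired.

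Members, the 46 gene lists (1152 genes) and tests were chosen with earlier results of these data known. Genes are named by a rule: the 12 largest rises and falls among protein-coding genes called with and without NALM-6 library 1, with a mean of at least 5 CPM in the higher line and no overlap, up to 5 called members per list by size, every measured gene of the subtype, V(D)J and B-marker lists, and members of runs. A few genes that the rule names are not reported here, in the text or in the plot of B-lineage genes. Overlapping genes may share reads, as for GABRA4 with GABRB1, PRDX2 with HOOK2, CRMP1 with EVC, PEG10 with SGCE, RAG1 with RAG2, HOXA3 with HOXA4 to HOXA6, MSH6 with FBXO11 and MEST with COPG2. Lambda light chain genes, HLA, IFITM, metallothionein, zinc finger and ribosomal protein genes resemble their relatives closely, which makes their values uncertain.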

Additional observations from a re-analysis of the deposited data

How the results depend on the processing

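Over the 20 alternatives, the number of autosomal genes called stayed within 1.5 times the reported 4964 in all but one, 8657 (5139 higher and 3518 lower) without NALM-6 library 1 and REH CSF library 3, both of which stand apart in the share of ribosomal protein reads. With 1 media library left out, it ranged from 3983 to 6105, with 2702 to 4139 higher and 1270 to 2382 lower. The number of lower genes, reported as 1625, was 2730 under quantile normalization, 2563 with edgeR, 3270 with DESeq2 and 2790 with edgeR without NALM-6 library 1. The replicate block gave 4455 calls. The median difference, reported as 0.28, was -0.0237 under quantile normalization and -0.0219 with DESeq2, and ranged from 0.09 to 0.38 with 1 media library left out.

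Uncalled genes near 0 changed sign in some settings. With 1 media library left out, the ranges were -0.50 to 0.63 for PAX5, -0.32 to 0.21 for MEF2D, -0.17 to 0.25 for TERF2, -0.37 to 0.71 for CCNJ, -0.60 to 0.89 for PRKDC and -0.34 to 0.20 for BLNK, each lowest without NALM-6 library 1 and the same without REH CSF library 3 as well. With edgeR without NALM-6 library 1 they were -0.40 for MEF2D, -0.25 for TERF2, -0.46 for CCNJ and -0.42 for BLNK. HIST2H2BE, called higher in limma (adjusted p = 0.0291, and 0.0972 with the replicate number as a block), was called in 9 of 19 alternatives. Its difference was -0.41 under quantile normalization. Beside that of HIST2H2BE, replicate numbers moved no other call named in the report than those given there. In a single library, a level under about 0.1 CPM rests on 3 reads or fewer and is not distinguishable from absence at this depth.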

Other observations

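The calls differed in number between classes of genes, beside 26.1% higher and 12.7% lower over all members. Of 11032 protein-coding genes, 2782 were called higher in REH and 1375 lower. Of 400 long intergenic RNAs among the members, 177 were higher and 62 lower, and of 461 antisense RNAs 167 were higher and 63 lower. Of 294 processed pseudogenes, 17 were higher and 45 lower.

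The spread between libraries differed between the lines. The median standard deviation of a member over the 3 libraries was 0.07 (log2) in REH and 0.45 in NALM-6, while NALM-6 libraries 2 and 3 differed from each other by a median of 0.10.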
